A study of Mus musculus with 2 samples.

Results

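Of the 23308 sites at which tagged Rfx6 was found on DNA in a mouse β cell line, 318 (1.36%, 95% Wilson interval 1.22 to 1.52%) had their summit on an untranslated exon away from any gene start. A peak belonged here when its summit, the position of highest signal, lay in an untranslated segment (UTR) of a protein-coding gene, in no coding segment, and more than 1 kb from the start of every transcript of a protein-coding gene. The annotation was GENCODE release M1 on the NCBIM37 (mm9) genome, in which UTR segments include the stop codon. The 318 peaks lay in 314 genes. In 310 of them the summit was in a 3′ UTR only, in 7 it was in a 5′ UTR only, and in 1 it was in both, because the 3′ UTR of Polr2c there overlaps the 5′ UTR of Dok4 on the other strand. The share in a 3′ UTR was thus 97.8% (95.5 to 98.9%). The rule left 25.1 Mb of 3′ UTR in 25.8 Mb of untranslated sequence, so nearly all the sequence available was 3′ UTR.

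Min6b1, the line used, derives from mouse β cells that secrete insulin, and was kept in DMEM with 25 mM glucose and 15% foetal calf serum. For the HA-Rfx6 library they received 24 µg of the plasmid pCMV-Tag2A-3HA-Rfx6 with Lipofectamine 2000 and were harvested 2 days later, and chromatin was precipitated with the HA antibody 12CA5. The HA-Ctrl library was made with the same antibody from cells labelled only as Min6b1, although its growth text repeats the transfection. There was 1 library per condition, so no value has a replicate error, no test between conditions was possible, and the protein mapped was a tagged one expressed from a plasmid, not the Rfx6 of the cells. MACS kept 33949757 of 49443917 HA-Rfx6 reads and 3567375 of 16911298 control reads. The control entered only through the peak calling by MACS, that is, through which sites were called and the fold enrichment, score and FDR of each. A peak list holds no expression, so markers of β cells could not be examined in it.

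Rfx6 is a member of the RFX family of winged-helix transcription factors and takes part in the formation of islet cells and in the function of mature β cells. RFX proteins bind the X-box, an imperfect inverted repeat of a pair of half-sites with a short spacer. The UTRs of a messenger RNA flank its coding sequence, and the 3′ UTR, which usually lies in the last exon, holds signals for polyadenylation, stability and translation. As DNA, the same bases lie at the far end of the gene from its promoter, often close to the next gene.

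Sequences are printed first for the summits that held an X-box, since these carry the letters that RFX proteins are known to bind. The strict X-box was searched on both strands of the 200 bp around each summit, as half-sites related to GTTGCC and GGCAAC with a spacer of 0 to 3 bases. It was present at 14 of the 318 summits, and 13 of these sites are printed, each as 30 bases of the mm9 genome on the strand of the gene, 5′ to 3′, with the X-box in capitals.
C2cd4c: taggacggGTTGCCAGGGCAACtggccttc
Npcd: gagatcccgGTTGCCCAGTAACaaccaatg
Dzip1l: ggtttcttgGTAACCAGCAACatagtcatg
Itga11: ccgctttgGTTGCTAGGCAACtcgtgctag
Elfn2: gctagtccGTTGCCATGGCAACccagagcc
Zc3h10: attcccagGTTGCCTTGGTAACcagggctc
Epn3: ccttgaggGTTACCATGGCTACccacgtgc
Cog2: tcctccggGTCACCCAGCAACagcctgtac
Clec16a: ctttgaccGTCACCATGGCAACatgcagtg
Arfip2: tagagacaaGTAACCAGGCAACtacaatac
Slc4a3: gcgtcacaGTTGCTAGGTAACcagctgtct
Igfbp5: taccaaggGTTGCCATGGCAACctcccaac
Rnf145: agccagcaGTTGCCATAGCAACgtgcgcat

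The remaining site was in the 3′ UTR of Fam38b. Npcd held 2 matches, of which the one nearer to the summit is printed. Of the 13 printed sites, 7 had a spacer of 2 bases, 5 had 1 base and 1, at Dzip1l, had none. C2cd4c, Elfn2 and Igfbp5 each carried the complete pair GTTGCC and GGCAAC with a spacer of 2 bases. The Elfn2 site, at chr15:78501020-78501033 (minus strand gene), covered its summit, and its peak held 135 reads at a fold enrichment of 19.3. The C2cd4c site, at chr10:79072223-79072236, lay 36 bp from a summit with 371 reads. The Igfbp5 site, at chr1:72905529-72905542, lay 22 bp from a summit with 48 reads at a fold enrichment of 5.88. The same 12 letters thus stood at peaks with 48 to 371 reads. Igfbp5 encodes a binding protein of insulin-like growth factors.

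For the 5 peaks with the most reads, the closest pair of half-sites is shown in the same way, with the pair in capitals, since no strict X-box was found at these summits. Closeness was counted as mismatches of 12 letters to GTTGCC and GGCAAC with a spacer of 0 to 3 bases, a measure chosen after the data had been seen.
Rnft2: caagctttGTTACTATGGCAATggccatga
Il4ra: gcctgtgGGCGCCCTGGGCATTgctgtttc
Ttc7: ttgaagcCTTGCCCAGGACAGCcacagctt
Gadd45g: caggcgatGTTGCCTGGAGAGcgaggagcg
E030010N08Rik: accaatgtGCTCCCTGGTGATCcaaccaat

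The Rnft2, Ttc7 and Gadd45g pairs had 3 mismatches, the Il4ra pair 4 and the E030010N08Rik pair 5. Over the 10 peaks with the most reads the mismatches ran from 0 to 5. The pairs at Rnft2 and Ttc7 covered the summit itself. Those at E030010N08Rik, Il4ra and Gadd45g lay 8, 21 and 33 bp from their summits. For peaks on untranslated exons, the closest pair had 3 mismatches at 41.5% of summits and 18.9% of windows 1 kb to the right. For 4 mismatches the shares were 36.5% and 56.3%, and for 5 they were 2.20% and 21.4%. Such pairs were thus also common away from summits. The distance depends on which pair is taken when several are equally close, and its closeness to the summit was not tested.

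The peak with the most reads on an untranslated exon was that of Rnft2, which encodes a membrane protein with a RING finger. It lay at chr5:118639175-118644235, spanned 5061 bp, and held 932 reads at a fold enrichment of 38.8, with the summit in the last of 12 exons, 1483 bp into the 3′ UTR. The peak of Il4ra, the α chain of the interleukin-4 receptor, at chr7:132719198-132721742, held 672 reads and had the highest fold enrichment of the 318, 53.7. Its summit was 12 bp into the 3′ UTR, so that most of the coding part of the last exon lay under the same peak. Ttc7, a gene of the tetratricopeptide repeat class, followed with 662 reads and Gadd45g, a gene of the response to DNA damage and growth arrest, with 646 reads. These 4 peaks stood above the other members in reads.

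E030010N08Rik had 550 reads, Rab40c, a small GTPase of the Rab class, 464, Gm22 438 and C2cd4c 371. Dusp28, an atypical dual-specificity phosphatase, had 335 reads and Slc6a11, a transporter of the neurotransmitter GABA, had 315. All 10 summits lay in the last exon, and 9 of these 10 peaks reached into coding sequence. A strict X-box was present at 1 of the 10, C2cd4c.

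By fold enrichment the order differed, and 5 of the 10 highest were also among the 10 with the most reads. After Il4ra came Npcd, whose summit also lies in a UTR of Nptxr, the neuronal pentraxin receptor gene, with a fold enrichment of 48.5 on 300 reads. Gadd45g had 46.1, Epb4.9, which encodes the actin-bundling protein dematin, 45.0 on 273 reads, and Kctd11, a BTB-domain gene, 42.6 on 278 reads. Ttc7 had 41.9 and Srcin1, a regulator of Src kinase, 35.8 on 204 reads. The genes of a TNF family ligand and of a TNF receptor, Tnfsf10 and Tnfrsf1b, both had 33.4, on 272 and 263 reads.

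**Figure D1:**
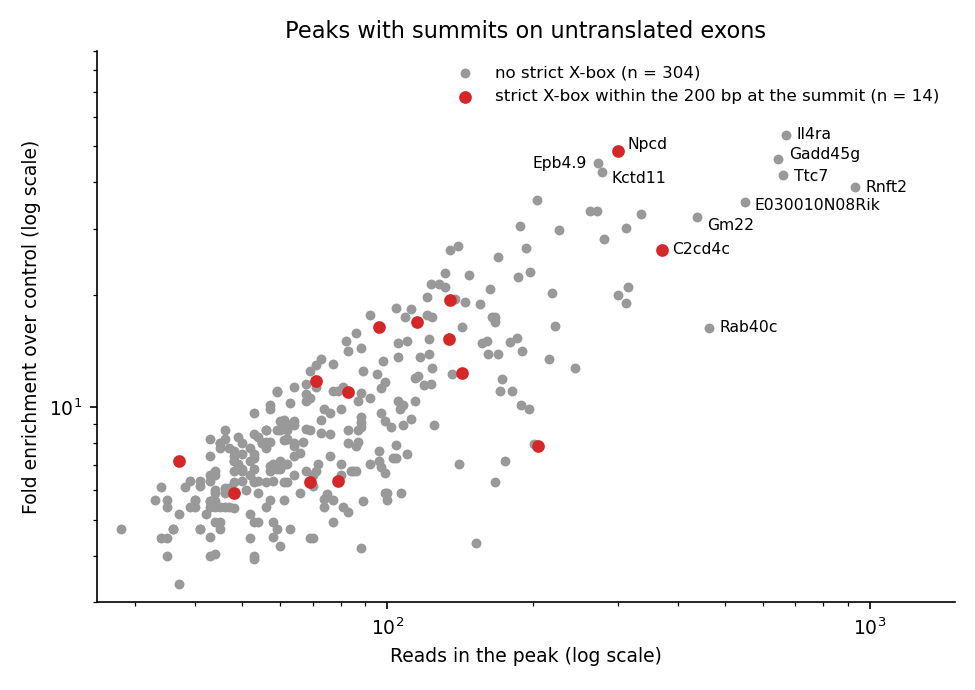
Reads of the HA-Rfx6 library in each peak (horizontal, log scale) against its fold enrichment over the control (vertical, log scale), 1 point for each of the 318 peaks on untranslated exons, with the 14 that hold a strict X-box in red. The red points run from 37 reads at Rnf145 to 371 at C2cd4c, and Rnft2, Il4ra, Ttc7 and Gadd45g lie at the far right without one.

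Over all 318 peaks the reads ran from 28 to 932 with a median of 71.5 (95% order-statistic interval 67 to 80). The fold enrichments ran from 3.37 to 53.7 with a median of 8.08 (7.77 to 8.71), and the median width was 1215 bp. The median read number was 78 (73 to 84) for the 712 peaks on coding exons more than 1 kb from starts, 70 (69 to 71) for the 8652 intronic peaks at that distance, and 73 for all peaks. Among all peaks 9.99% had more than 182 reads, and among those on untranslated exons 35 (11.0%) did. Reads and width went together across the 318 peaks (Spearman's rho 0.85, a description over peaks of 1 library).

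The FDR did not order these peaks as the fold enrichment did. The 20 with an FDR above 5% had 204 to 932 reads and fold enrichments of 16.3 to 53.7, and their FDR reached 25.3%. Rnft2, Il4ra, Ttc7 and Gadd45g shared this highest value. All 10 peaks with the most reads and all 10 with the highest fold enrichment were among the 20, C2cd4c and Npcd included. The 20 are 6.29% of the 318, and 1148 (4.93%) of all peaks had an FDR above 5%, with 174 to 1486 reads. The other 298 peaks had 28 to 245 reads, fold enrichments of 3.37 to 30.6 and an FDR of 1.75 to 4.90%. MACS derives the FDR from peaks called with ChIP and control exchanged, and the part of the shallower control in these values was not tested.

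To set the number of peaks against the sequence available, summits were counted per Mb of each kind of sequence lying more than 1 kb from protein-coding starts. Untranslated exons had 12.3 summits per Mb (exact Poisson interval 11.0 to 13.8) over 25.8 Mb. This was more than introns, with 9.82 (9.61 to 10.0), and intergenic sequence, with 5.11 (5.00 to 5.22), and less than coding exons, with 26.6 (24.7 to 28.7). The 3′ UTRs had 12.4 per Mb (11.0 to 13.8). The 5′ UTRs had 13.9 from 8 summits, and the wide interval of 5.99 to 27.3 allows a density below or above that of 3′ UTRs. How much of each kind of sequence could be mapped with reads of 50 bases was not tested.

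**Figure D2:**
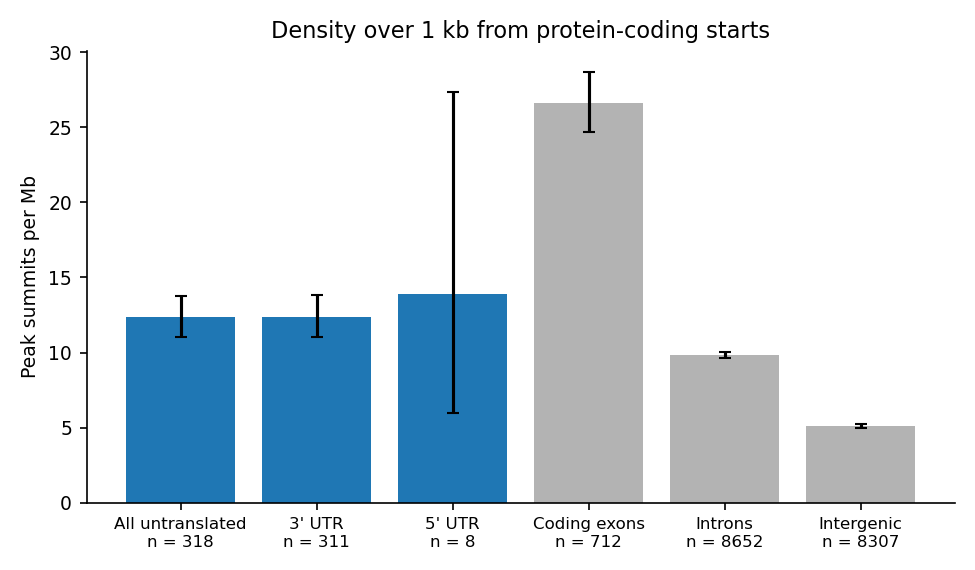
Peak summits per Mb of sequence (vertical) for untranslated exons, their 3′ and 5′ parts, coding exons, introns and intergenic sequence, all more than 1 kb from protein-coding starts, with exact Poisson 95% intervals as bars. Coding exons stand highest at 26.6, untranslated exons lie at 12.3, and introns and intergenic sequence lie below at 9.82 and 5.11.

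The autosomes had 12.9 of these summits per Mb of untranslated sequence, from 4.02 on chromosome 18, with 3 summits, to 18.1 on chromosome 15, with 17. The X chromosome had 0 in 1.09 Mb, for which the exact Poisson interval reaches 3.39 per Mb. Of all 23308 peaks, 174 (0.747%) were on X, so few peaks of any kind were found there. The sex chromosome complement and copy number of the line were not examined.

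Within the 3′ UTR the summits were spread along its length. The 311 summits lay a median of 848 bp (740 to 1020) after the first base of the longest 3′ UTR that holds them and 877 bp (795 to 1008) before its end. The median relative place was 48.1% (44.3 to 53.2%) of a UTR with a median length of 2038 bp. With each UTR split in 3 equal stretches, the first held 104 summits, the middle 109 and the last 98. The summits lay from 8 to 6774 bp into the UTR.

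Counted per Mb of 3′ UTR, over the 293 summits in the longest 3′ UTR of a gene, the density was level over the first 4000 bp. It was 13.2 (10.6 to 16.2) in the first 500 bp, 12.9 (9.97 to 16.5) in the next stretch up to 1000 bp, 13.5 (10.7 to 16.7) up to 2000 bp and 12.3 (9.19 to 16.1) up to 4000 bp. Beyond 4000 bp it was 3.01 (0.820 to 7.71) from 4 summits. Measured from the transcript end, it was 9.92 (7.78 to 12.5) in the last 500 bp and 16.2 (12.9 to 20.2) in the 500 bp before that, so the final 500 bp of the transcript held fewer than the stretch before and the intervals did not overlap.

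**Figure D3:**
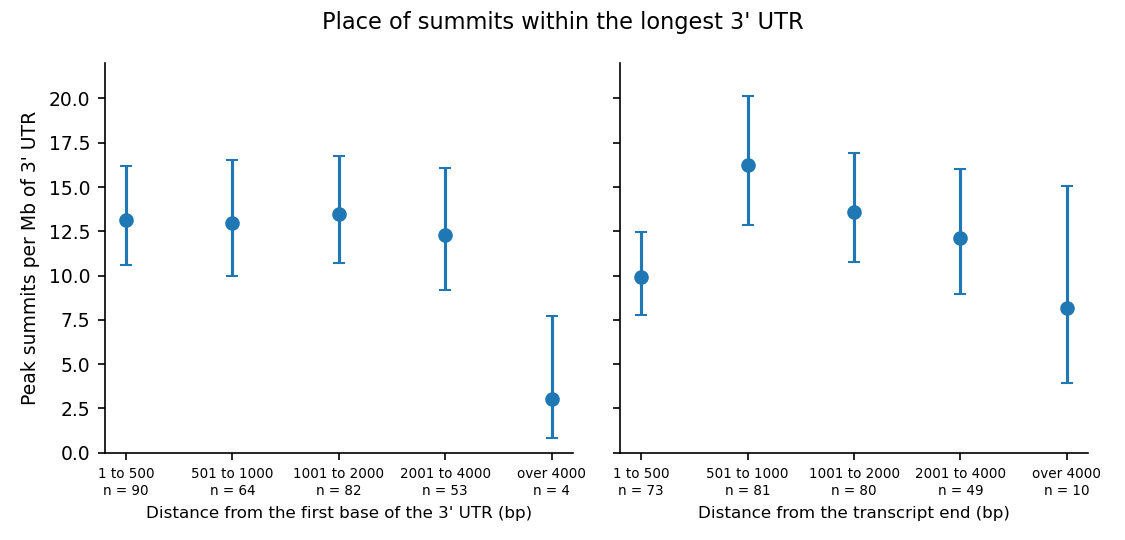
Peak summits per Mb of 3′ UTR (vertical) by distance in bp from the first base of the 3′ UTR (left) and from the transcript end (right), with exact Poisson 95% intervals and the number of summits under each point. From the first base the density stays between 12.3 and 13.5 up to 4000 bp and is 3.01 beyond, and from the end it is 9.92 in the last 500 bp and 16.2 in the next 500 bp.

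The polyadenylation signal AATAAA, read on the strand of the gene, was within the 200 bp at 22 of the 311 summits (7.07%, Wilson 4.72 to 10.5%), and in the window centred 1 kb to the right at 33 (10.6%). Where the summit was within 100 bp of the transcript end it was present at 10 of 13. The signal normally stands shortly before the site of cleavage.

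In 304 peaks (95.6%) the summit was in the last exon, and 12 of the 318 were in transcripts of a single exon. The share of the available untranslated sequence that lies in last exons is not given here. The interval of the peak lay wholly in the untranslated exon in 125 (39.3%) and reached a coding segment in 134 (42.1%). The peaks that reached coding sequence had more reads, with a median of 88 (77 to 99) against 64 (61 to 71) for the other 184. Reads and width went together, as given above, and the part of width in this difference was not tested. Peaks that reached coding sequence held a strict X-box in 2 of 134 (1.49%) against 12 of 184 (6.52%), a difference of -5.03 points (Newcombe 95% interval -9.69 to -0.349). For the relaxed X-box, described below, the difference was -7.60 points (-18.4 to 3.49). Splits by nearest start, by other summits in the gene or within 5 kb, and by place in the 3′ UTR gave intervals that included 0 for both patterns.

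Of the 7 summits in 5′ UTRs alone, that of Dzip1l, which encodes a protein of the ciliary transition zone, had the most reads, 205 at a fold enrichment of 7.86, in the second exon of 17. Tmie, a gene of hair cell mechanotransduction, had 197 reads, Eml6, of the microtubule-binding EML class, 189, and Blcap 80. Rimbp2, of the presynaptic active zone, had 74 reads, Gm9989 73, and Pcdh17, a protocadherin gene, 43. Fold enrichments of these 7 ran from 4.49 at Pcdh17 to 13.4 at Gm9989. The summit shared by Polr2c and Dok4, which counts on both sides, had 162 reads.

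Although every summit was more than 1 kb from a protein-coding start, many were not far from one. The nearest start was 1 to 2 kb away in 38 peaks, 2 to 10 kb in 147 and more than 10 kb in 133, with a median of 7.67 kb. The farthest was the summit in Sox6, 349 kb from a start. In 111 peaks (34.9%) the nearest start belonged to a gene other than the one holding the summit, and 70 of these summits lay upstream of that start.

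Among the strongest peaks, Rab40c had its summit 1.93 kb upstream of Wfikkn1, E030010N08Rik 5.07 kb upstream of Sned1 and Epb4.9 2.79 kb upstream of Fam160b2. Reads had a median of 71 (62 to 86) where the nearest start was of another gene and 72 (64 to 80) where it was of the same gene, so no difference was detectable. Peaks 1 to 2 kb from a start had a median of 87.5 (70 to 132) and those beyond 10 kb 67 (61 to 76). A start of a transcript of another gene type lay within 1 kb in 5 peaks, among them that of Neurod1, 40 bp from the lincRNA Gm17325.

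**Figure D4:**
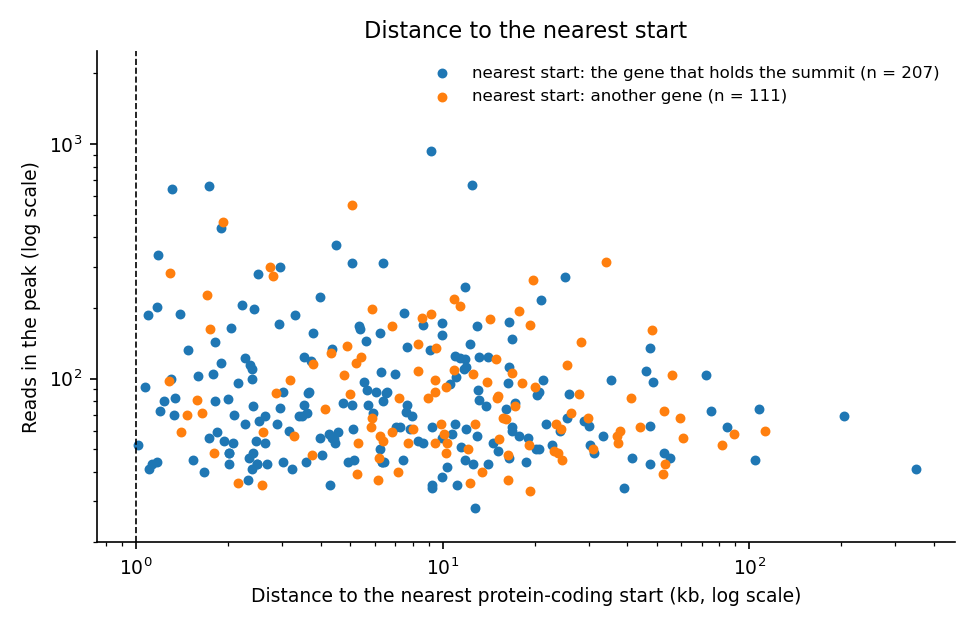
Distance from the summit to the nearest protein-coding start in kb (horizontal, log scale) against reads in the peak (vertical, log scale), coloured by whether that start is of the gene holding the summit (207 peaks) or of another gene (111). The dashed line is the limit of 1 kb, and both colours spread over the whole range of reads.

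At the limit of 1 kb, the members nearest to a start were 1700034H15Rik, 1018 bp away with 52 reads, and 4932442E05Rik, 1066 bp away with 92 reads. Just outside were the UTR summits of 2310002J15Rik, 992 bp away with 194 reads, and Coq10a, 990 bp away with 101 reads.

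Other summits in the genes holding these peaks were counted, and the same counts for the genes of other peaks are not given here. In 114 peaks the summit was the only one in its gene. The same gene had a further summit within 1 kb of a start in 103 (32.4%), in an intron in 152 (47.8%) and in a coding exon in 18 (5.66%), and Hivep3 had the most summits, 19. Another summit lay within 5 kb of 121 (38.1%), against 29.7% of all peaks, 39.2% of those on coding exons (difference -1.14 points, -7.45 to 5.35) and 33.3% of those in introns (difference 4.71 points, -0.554 to 10.2).

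Of the genes, 7 held 2 members and none held 3. Nfatc2, a calcium-regulated transcription factor of lymphocytes, had summits 2862 bp apart with 73 and 104 reads. Arid5a had 58 and 80 reads 2128 bp apart, Sft2d2 68 and 74 reads 1791 bp apart, and Anks1 108 and 59 reads 1494 bp apart. Itpkb, an inositol trisphosphate kinase gene, had 56 and 68 reads, and 6330403A02Rik had 97 and 43 reads. The 4 summits of this last pair of genes lay on chromosome 1 within 13065 bp. In Dzip1l the summits were 35680 bp apart, in a 5′ and in a 3′ UTR.

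The strict X-box was present at 4.40% of the summits (Wilson 2.64 to 7.25%), against 6.42% of all peaks. In windows of the same length 1 kb to the right or to the left of the 318 summits it was found in 0 (Wilson interval 0 to 1.19% for each side). The share on untranslated exons was 2.01 points above that on coding exons, 2.39% (Newcombe interval -0.237 to 5.00), and 1.86 points below that in introns, 6.26% (-3.70 to 1.03 for members minus introns). Both intervals included 0. The interval against coding exons excluded 0 with a limit from starts of 500 bp (2.55 points, 0.443 to 5.36). With 2 kb it did so too (2.57 points, 0.138 to 5.83). It also excluded 0 in the set of peaks with the highest scores (5.08 points, 1.44 to 10.5). The same held with a fold enrichment of at least 10 (6.10 points, 1.74 to 12.6). With an FDR of at most 5% it included 0 (1.45 points, -0.835 to 4.48). The interval against introns included 0 in all of these. In intergenic peaks the share was 7.48%, and members minus intergenic was -3.07 points (-4.93 to -0.171).

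All 14 strict X-boxes lay within 50 bp of the summit and 8 within 20 bp, with a median of 15.5 bp and a greatest distance of 41 bp. Peaks with one had a median of 105.5 reads (69 to 205) and those without 70.5 (64 to 77), so the intervals overlapped. Median fold enrichments were 12.1 (6.36 to 19.3) and 8.04 (7.53 to 8.71), again with intervals that overlapped. By reads, after C2cd4c, Npcd and Dzip1l, came Itga11, an integrin subunit, with 143, Elfn2 with 135, Zc3h10, a zinc finger gene, with 134, and Epn3, of the epsins of endocytosis, with 115. Cog2, a subunit of the Golgi complex COG, had 96 reads, Clec16a, a gene of mitophagy, 83, Fam38b, which encodes a mechanosensitive channel, 79, and Arfip2 71. Slc4a3, an anion exchanger, had 69 reads, Igfbp5 48 and Rnf145, a RING finger ubiquitin ligase gene, 37.

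A relaxed X-box, with fewer fixed letters and a spacer of 1 to 3 bases, was at 154 summits (48.4%, 43.0 to 53.9%) against 78 (24.5%) of the windows 1 kb to the right, and 45.9% of all peaks had one at the summit. On coding exons the share was 40.9%, 7.56 points lower (1.00 to 14.1), and in introns it was 47.1%, 1.37 points lower (-4.17 to 6.95). The relaxed X-box was therefore more frequent on untranslated than on coding exons, and no difference from introns was detectable.

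A pair of half-sites with at most 2 mismatches was at 63 summits (19.8%) and in 8 of the windows to the right (2.52%). The share over all peaks was 19.8% as well. Peaks with such a pair had a median fold enrichment of 11.1 (8.97 to 12.7), and those with 4 or more mismatches 7.48 (7.06 to 8.31). Their median reads were 88 (71 to 119) and 68 (59 to 77), and these intervals overlapped. The single half-site GTTGCC was at 76 summits (23.9%), against 19 (5.97%) to the right and 26.8% at all peaks.

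**Figure D5:**
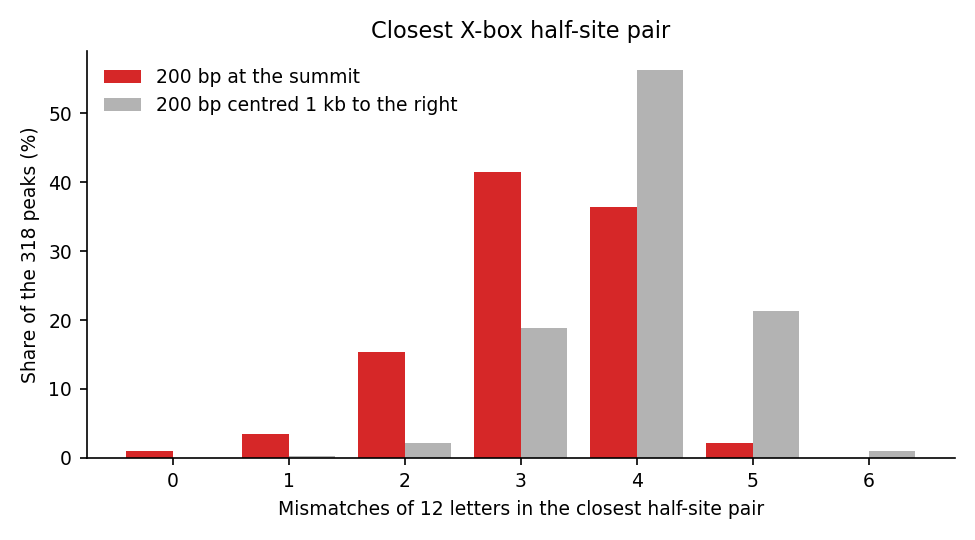
Share in percent of the 318 peaks (vertical) by the number of mismatches of 12 letters in the closest half-site pair (horizontal), in the 200 bp at the summit (red) and in the 200 bp centred 1 kb to the right (grey). At the summit 3 mismatches were most frequent (41.5%), and to the right 4 (56.3%).

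Other motifs differed less between the summit and its surroundings. The E-box-like CAGNTG was at 58.5% of summits and at 49.1% to the right, AGGTCA, a nuclear receptor half-site, at 13.5% and 15.1%, and TGANTCA, the letters read by AP-1, at 5.03% and 6.92%. TTGGCA was at 14.2% and 10.1%, and TAATTA, read by homeodomains, at 2.52% and 1.89%. TGTTTAC, the forkhead letters, was at 1.57% and 2.20%, and TGACGTCA, the cAMP response element, at 0.314% and 0. The letters of GGGCGG, the GC box, were at 5.35% of summits here and at 3.77% to the right. On coding exons they were at 10.7% of summits, a difference of -5.33 points (-8.51 to -1.65). The corresponding shares over all peaks were 53.6% for CAGNTG, 12.0% for AGGTCA, 5.64% for TGANTCA, 13.2% for TTGGCA, 2.02% for TAATTA, 2.45% for TGTTTAC, 0.287% for TGACGTCA and 11.1% for GGGCGG. All were searched on both strands, and a match is a description of letters, not of a factor.

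The summits were richer in G and C than the sequence beside them, with a median GC content of 54.5% (54 to 55%) in 200 bp against 50.5% (49.5 to 52.0%) 1 kb to the right. That window can lie outside the untranslated exon, and how often it did was not counted. All peaks showed the same, with medians of 54% and 48%. On coding exons the median was 58.5% and in introns 52.5%. Few were CpG-rich, with a GC content above 55% and an observed to expected CpG ratio above 0.65 in 500 bp. They numbered 8 (2.52%), against 12.2% on coding exons (difference -9.70 points, -12.6 to -6.47), 0.798% in introns (difference 1.72 points, 0.465 to 4.09) and 13.5% of all peaks. These 8 were Aqp2, Eml6, Hmx1, Agap2, Cog8, Prdm12, Shf and Pcdh17, and none held a strict X-box.

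Genes of 8 lists were looked up among the 314 genes, which are 1.41% of the 22238 protein-coding genes. Among the list of β cell transcription factors, Neurod1, an activator of the insulin gene, had a summit 22 bp into its 3′ UTR with 69 reads at a fold enrichment of 4.47. Of 48 genes of insulin secretion, 1 held a member, the potassium channel gene Kcnk3, with 64 reads. Of 41 genes of RFX factors and of cilia, 1 did, Kif17, a kinesin of cilia, with 194 reads at 26.6 and a pair of half-sites with 2 mismatches over the summit.

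Of 40 immediate early genes, 1 did, the antiproliferative gene Btg2, with 105 reads 41 bp into the 3′ UTR. Of 26 matrix genes, 1 did, the basement membrane collagen gene Col4a2, with 136 reads. None of 11 genes repressed in β cells, 29 of ER stress or 31 of glycolysis and the citric acid cycle held one. The Rfx6 gene held no member.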

How the data were processed

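The analysis started from 1 deposited peak list, that of the anti-HA ChIP-seq library HA-Rfx6, and the HA-Ctrl library entered only through it. The submitters' processing notes name CASAVA 1.8.2, Bowtie and MACS 1.4.2 and the build mm9. Per the file headers, the authors called peaks with a p-value cutoff of 1e-05, a fragment size of 234 bp and at most 1 read per position, which removed 31% of the HA-Rfx6 reads and 79% of the control reads. For each peak the authors deposited a count of reads, not normalized, a ratio (fold enrichment over the background expected from control and surroundings), an FDR in percent and a score (-10 log10 of the p-value). A shallow control makes the background, and so the ratio, less precise.

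The summit was the peak's start plus the listed summit offset minus 1. UTR, coding and start positions came from GENCODE M1, and the side of a UTR from the coding segments of its transcript. Starts were those of all transcripts of protein-coding genes. Motifs were searched in the 200 bp around the summit, and windows 1 kb away served for comparison. Right and left are those of the genome, whatever the strand of the gene. Such a window can therefore lie in another kind of sequence than the summit. Shares have Wilson, differences Newcombe, densities exact Poisson and medians order-statistic intervals, all at 95% and for counting error only. Neighbouring peaks share 1 library and are not replicates, and no test was made. The members, the gene lists and the motifs were chosen with earlier results of these data known. Genes were named when they held the 10 peaks with the most reads or the 10 with the highest fold enrichment, a 5′ UTR summit, a strict X-box, 2 members, or stood in a list or at the 1 kb limit. The CpG-rich genes and Sox6, Hivep3 and Polr2c were named after their values were seen. Calculations ran in scipy 1.17.1, pandas 2.3.3 and numpy 2.4.6 under Python 3.11.15, and figures were drawn in matplotlib 3.10.9. Some results at named loci are not reported here. Searches and placing were tested on simulated data. Alternatives were other start distances and transcript types, the peak middle, stricter peak sets, other windows and patterns, and the shortest 3′ UTR.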

Additional observations from a re-analysis of the deposited data

How the results depend on the processing

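Values were recomputed with 1 choice changed at a time. Of 135 such repeats, 112 stayed within the 95% interval of the value given above (for the number of peaks, within 1.5 times). Among the 50% of peaks with the highest scores there were 145 members, with medians of 121 reads, a fold enrichment of 13.4, a score of 346, a width of 1431 bp and a GC content of 55.5%, and their strict X-box share was 5.08 points above that on coding exons (1.44 to 10.5). With a fold enrichment of at least 10 there were 114 members, or 4.42 per Mb, with medians of 132 reads, a fold enrichment of 15.1, a score of 464, a width of 1395 bp and a GC content of 56.5%. Their strict X-box share was 7.89%, which was 6.10 points above coding exons (1.74 to 12.6), so the interval of this difference, which included 0 over all peaks, excluded it in both sets, as it did with start distances of 500 bp and 2 kb. The relaxed pattern gave 48.4% at summits and 24.5% beside them, 7.56 points above coding exons and 1.37 above introns, where the strict pattern had been 1.86 points below with an interval that included 0. A start distance of 500 bp put 90.6% of the members in 3′ UTRs, as 42 more summits entered. The part of 3′ UTRs in the untranslated sequence at that distance was not computed. The GC content was 53.5% around peak middles and 56% in 100 bp. With an FDR of at most 5%, 298 members remained, without the 20 of highest FDR, and they included 37 of the 52 peaks named. Counting starts of protein-coding transcripts only, an alternative added after seeing the data, gave 328 members, which include the 318. Of 52 peaks named, 40 were members when placed by the middle and 32 to 52 under the others. No paired analysis was possible because HA-Rfx6 and HA-Ctrl each had a single library, and so no replicate could be left out. The depth of the control, the mappability of UTRs and the level of the tagged protein limit all values.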
